A study of Mus musculus with 20 samples.

Results

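Expression of 7 genes that mark striatal medium spiny neurons, Ppp1r1b, Rgs9, Adora2a, Pde10a, Rasd2, Pde1b and Adcy5, was examined in the preoptic area (POA) of 20 male mice by bulk RNA-Seq. The genes were taken by symbol from a count table of 25239 genes, and all 7 were present and passed the filter on low counts that left 17445 genes over the 4 groups. Control mice, of matching genetic background, came from crosses between siblings that were heterozygous for dnFGFR. dnFGFR mice were homozygous for a transgene encoding a truncated FGF receptor 1 without its kinase domain, which a rat GnRH promoter directs to GnRH neurons. From PND20 each male lived with a same sex (SS) male or an opposite sex (OS) female, with which it bred freely, until collection at PND320 after 300 days. Each of the 4 groups held 5 mice, named below by genotype, housing and replicate number.

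Medium spiny neurons are the GABAergic projection neurons of the striatum and make up most of its cells. They receive dopamine and adenosine signals that raise or lower cyclic AMP, which protein kinase A relays to targets such as DARPP-32, and phosphodiesterases end the signal by breaking cyclic nucleotides down. Neurons of the direct pathway carry the dopamine receptor Drd1, and those of the indirect pathway carry Drd2 and Adora2a. The striatum lies beside the POA, and the samples were cut lateral to the internal capsule, the fiber tract that runs through the striatum. In bulk tissue, fewer medium spiny neurons and less RNA per neuron cannot be told apart.

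Counted reads per mouse had a median of 36094734 in control SS, 34918710 in control OS, 34903683 in dnFGFR SS and 33798011 in dnFGFR OS mice. The library of dnFGFR OS replicate 5 stood apart from the other 19. It had reads on 18416 genes, against 19101 to 19659 in the others. Its log2 level changed by -0.30 for each 10 percentage points of transcript GC content, relative to the mean of all mice, and this GC trend lay between -0.11 and 0.10 in the others. A different mouse, dnFGFR OS replicate 3, had the lowest level of all 7 genes. In edgeR comparisons that involve these mice, the number of the 7 genes with an unadjusted p under 0.05 is also given without each. Each correlation names the mice left out, if any. DESeq2 calls, fits by sacrifice date or with trends removed, counts of gene pairs, other named genes and rankings are given without leaving either out. Levels are too, except where stated. Sacrifice fell in June or July for the 10 control mice, and in May for 9 dnFGFR mice and November for 1, so that genotype and date cannot be told apart.

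The samples held RNA of the preoptic area and of its surroundings. Of 25 genes of preoptic and hypothalamic identity, none was at 0 in all mice, but 4 averaged under 1 CPM (counts scaled to a common library size by TMM). Hcrt, the orexin gene of the lateral hypothalamus, was the least abundant at 0.0454 CPM, and Peg10, an imprinted gene, was the most abundant at 186 CPM. Gnrh1, which encodes GnRH, averaged 1.68 CPM, and the estrogen receptor gene Esr1 5.67 CPM. By contrast, the 7 medium spiny neuron genes were among the most abundant genes of the tissue. Their mean levels lay at the 93.2 percentile (Adora2a) to the 99.6 percentile (Adcy5) of all genes tested, where the median gene was at 19.9 CPM. Together they took up 0.307% of the counted reads in dnFGFR OS replicate 3 and 0.552% in control SS replicate 1.

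Per length of merged exons, Ppp1r1b had the highest level, 307 ± 56.4 RPKM (CPM divided by exon length in kilobases, mean ± SD, n = 20 mice). Pde1b (152 ± 18.7), Rasd2 (149 ± 16.8) and Adcy5 (131 ± 15.9) followed, and did not differ from each other beyond their spread. Rgs9 (65.4 ± 9.5), Adora2a (59.2 ± 8.77) and Pde10a (56.9 ± 9.08) had the lowest levels on the RPKM scale and also overlapped with each other. Ppp1r1b stood above Pde1b, and Adcy5 above Rgs9, by more than these spreads.

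The genes lie on 6 chromosomes of the mouse genome (RefSeq, GRCm38). Ppp1r1b is at chr11:98348406-98357796 and Rgs9 at chr11:109225348-109298181. Adora2a is at chr10:75316877-75334792, Pde10a at chr17:8525187-8986648 and Rasd2 at chr8:75213944-75224113. Pde1b is at chr15:103503034-103530056 and Adcy5 at chr16:35154494-35305743. Ppp1r1b overlaps the lncRNA gene 1700003D09Rik, whose reads came to 32.3% of its own. Because the use of strand in counting is not stated, reads of these 2 genes may be shared. None of the 7 had counts identical to those of another gene.

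Promoters of Rgs9 and Adcy5 are shown because these genes passed the test between genotypes described below. Sequences are the 250 bases before a transcript start annotated by RefSeq (GRCm38.p6), written 5′ to 3′ on the strand of the gene, with GC boxes (GGGCGG on either strand) and TATA boxes (TATAAA on either strand) in capitals.
Rgs9, chr11:109298182-109298431, minus strand: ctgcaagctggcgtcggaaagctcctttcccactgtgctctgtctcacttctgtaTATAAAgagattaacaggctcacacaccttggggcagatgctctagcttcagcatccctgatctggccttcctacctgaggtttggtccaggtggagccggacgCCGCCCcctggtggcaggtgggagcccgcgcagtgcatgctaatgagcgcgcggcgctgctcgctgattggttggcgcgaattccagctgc
Adcy5, chr16:35154614-35154863, plus strand: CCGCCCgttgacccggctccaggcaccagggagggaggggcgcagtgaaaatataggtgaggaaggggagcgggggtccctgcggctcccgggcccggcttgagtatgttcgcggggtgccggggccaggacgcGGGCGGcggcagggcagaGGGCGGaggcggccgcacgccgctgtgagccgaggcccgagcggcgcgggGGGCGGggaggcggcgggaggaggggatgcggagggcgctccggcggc
The Adcy5 start used lies inside the gene as given above, so that the printed bases begin after its outermost start at 35154494. The Rgs9 promoter held 1 match to the GC box and 1 to the TATA box, and the Adcy5 promoter held 4 to the GC box. These are matches of letters at any position, and whether they act as promoter elements was not tested. The TATAAA of Rgs9 lies far from the transcript start, nearer to the first printed base. Among 32851 promoters of the same length, 32.7% held a GC box and 12.4% a TATA box. GC content was 59.6% for Rgs9 and 78.0% for Adcy5, against a median of 52.4%. The cyclic AMP response element TGACGTCA (1.55% of all promoters), its shorter core TGACG (17.8%), the EGR motif GCGTGGGCG (0.536%) and the E-box CACGTG (6.02%) were not found at any of the 8 annotated starts of Rgs9, Adcy5, Pde10a, Rasd2 and Pde1b. The core lies within the full element.

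All 7 genes had their highest group mean in control SS mice and their lowest in dnFGFR OS mice. The summed level of the 7 was 4981 ± 411 CPM (mean ± SD, n = 5) in control SS, 4564 ± 213 in control OS, 4493 ± 359 in dnFGFR SS and 3801 ± 449 in dnFGFR OS mice. The highest dnFGFR OS mouse, at 4022 CPM, lay below every mouse of the other 3 groups. Gene by gene, however, the dnFGFR OS and dnFGFR SS mice overlapped for all 7. In dnFGFR OS replicate 5, a low Ppp1r1b (528 CPM) and a high Pde10a (863 CPM) both entered the sum. How often sums of other genes separate in this way was not computed. By sum, control SS replicate 1 was highest at 5626 CPM and dnFGFR OS replicate 3 lowest at 2999 CPM. Mice within a group thus differed by amounts similar to the differences between group means, as the plot of each gene by group shows.

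**Figure D1:**
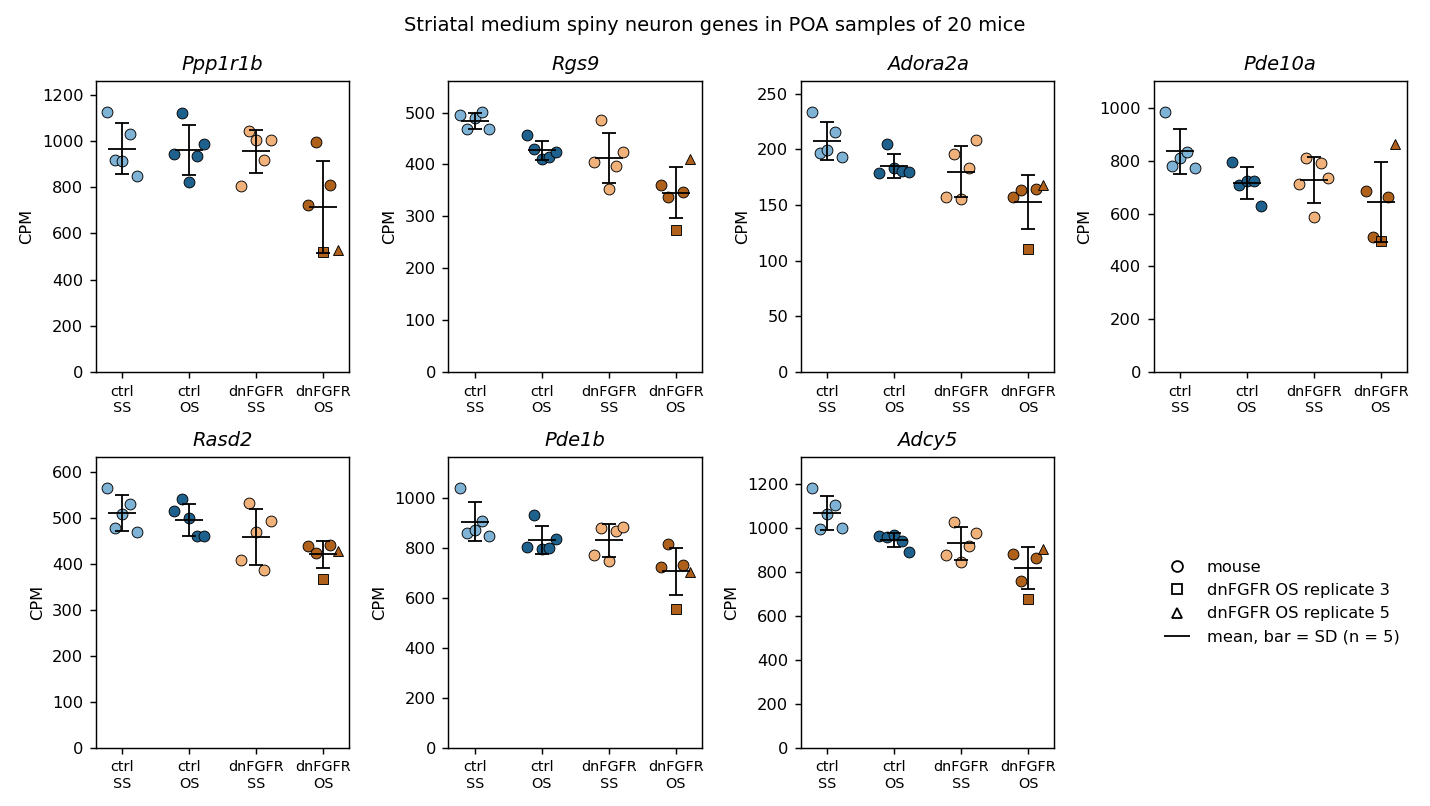
Level of each of the 7 genes in CPM (vertical axis, from 0) for the 4 groups, with each point a mouse and bars showing mean and SD (n = 5). dnFGFR OS replicate 3 (square) had the lowest level of every gene, and dnFGFR OS replicate 5 (triangle) was low for Ppp1r1b (528 CPM) but the highest of its group for Pde10a (863 CPM).

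Adora2a, the adenosine receptor of the indirect pathway that activates adenylyl cyclase, averaged 207 ± 16.8 CPM in control SS and 185 ± 10.8 in control OS mice (mean ± SD, n = 5). It averaged 180.0 ± 23.2 CPM in dnFGFR SS mice and 153 ± 24.1 in dnFGFR OS mice. The dnFGFR OS mice lay at 157, 163, 110.1, 164 and 168 CPM in the order of replicates 1 to 5, all below the lowest control OS mouse at 179 CPM. In SS housing the genotypes overlapped, since dnFGFR SS replicate 5 reached 208 CPM.

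Adcy5, the main adenylyl cyclase of striatal neurons, was at 1181, 995, 1062, 1104 and 1000.4 CPM in control SS mice. In control OS mice it was at 962, 959, 969, 939.7 and 892 CPM. Every control OS mouse was therefore below every control SS mouse. In dnFGFR SS mice Adcy5 was at 876, 1027, 844, 917 and 978 CPM. In dnFGFR OS mice it was at 879, 758, 675, 863 and 902 CPM, and the 2 dnFGFR groups overlapped.

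Rgs9, which speeds the shutoff of G proteins coupled to dopamine and opioid receptors, was at 495, 469, 490.0, 501 and 467 CPM in control SS mice. In control OS mice it was at 458, 429.7, 411, 415 and 424 CPM. These groups did not overlap and had small spreads, of 15.4 and 18.5 CPM (SD). The dnFGFR SS mice, at 405, 485, 352, 398 and 424 CPM, were spread more widely. The dnFGFR OS mice, at 360.4, 337, 274, 346 and 410.4 CPM, overlapped with them. The highest of that group was replicate 5, the library with the steep GC trend.

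Rasd2, also called Rhes, a small GTPase-like protein of the striatum, averaged 511 ± 39.5 CPM in control SS, 496 ± 35.1 in control OS, 459 ± 60.7 in dnFGFR SS and 421 ± 30.2 in dnFGFR OS mice. All dnFGFR OS mice, at 369 to 443 CPM, were below the lowest control OS mouse, at 461 CPM.

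Among the phosphodiesterases, Pde10a, which degrades cyclic AMP and cyclic GMP, averaged 837 ± 86.0 CPM in control SS, 717 ± 59.7 in control OS, 727 ± 86.8 in dnFGFR SS and 644 ± 150.1 in dnFGFR OS mice. Without replicate 5, the dnFGFR OS mean was 589.8 ± 100.2 CPM (n = 4). Pde1b, which is activated by calcium, averaged 906 ± 78.8 CPM in control SS, 833 ± 57.1 in control OS, 831 ± 64.8 in dnFGFR SS and 707 ± 95.1 in dnFGFR OS mice. Its dnFGFR OS mean was 707 CPM without replicate 5 as well.

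Ppp1r1b, which encodes DARPP-32, the inhibitor of protein phosphatase that protein kinase A switches on, was nearly level across 3 groups and lower in the fourth. It was at 1124, 919, 914, 1028 and 846 CPM in control SS mice and at 943, 1120.0, 821, 936 and 985 CPM in control OS mice. In dnFGFR SS mice it was at 806, 1041, 1005, 917 and 1004 CPM. The dnFGFR OS mice spanned the range from 520.3 CPM in replicate 3 to 995 CPM in replicate 2, with replicates 1, 4 and 5 at 721, 811 and 528 CPM. The low mean of this group, 715 ± 200.2 CPM, thus came with the widest spread of any group. The ratio of Ppp1r1b to Pde10a, in CPM, was 0.611 in dnFGFR OS replicate 5 and 1.95 in replicate 2, the extremes of all 20 mice.

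OS and SS housing were compared within each genotype with edgeR on all 5 mice of each group, whereas the study used DESeq2 after leaving out outlier samples. In control mice, none of the 7 genes passed an adjusted p of 0.1, against 21 of 17004 genes (0.124%). All 7 had lower estimates in OS-housed mice, as did 49.1% of all genes. Rgs9 had a log2 fold change of -0.18 (SE 0.0469, edgeR adjusted p = 0.252) and Adcy5 of -0.18 (SE 0.0550, edgeR adjusted p = 0.410). The groups of these 2 genes did not overlap, which was the case for 0.794% of all genes in the same direction. Before adjustment, 4 of the 7 had p under 0.05 with a lower level, against 3.54% of all genes. DESeq2 called 2 of the 7, Rgs9 (adjusted p = 0.0148) and Adcy5 (adjusted p = 0.0999), and 161 genes in all. Without control SS replicate 1, the edgeR estimates of Rgs9 and Adcy5 were -0.17 and -0.14.

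In dnFGFR mice, again none of the 7 genes passed, and neither did any other gene by edgeR (0%). All 7 had lower estimates after OS housing, against 49.1% of all genes, and for 3 the p before adjustment was under 0.05, against 3.77% of all genes. The groups overlapped for all 7, while 0.696% of all genes were lower without overlap. DESeq2 called none of the 7 and 14 genes in all. The largest estimate was that of Ppp1r1b, -0.42 (SE 0.159, edgeR adjusted p = 0.726), or 25.0% lower. It was -0.32 without dnFGFR OS replicate 3 and -0.32 without replicate 5. Without replicate 3, no member had an unadjusted p under 0.05, against 445 of 17048 genes that were lower. Without replicate 5, 6 of the 7 did, against 568 of 17069 genes, and Rgs9 and Pde10a had estimates of -0.32 and -0.30. Without replicate 3 these were -0.18 and -0.09. After removal of the trends of each library on GC content and gene length, the estimates of Adcy5 (-0.01), Rasd2 (-0.02) and Adora2a (-0.05) were close to 0, whereas that of Rgs9 was -0.27 and that of Ppp1r1b -0.23.

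The housing by genotype interaction was tested to ask whether the genotypes differed in their response to housing. No gene passed in edgeR (0%) or in DESeq2, the 7 included. The unadjusted p was under 0.05 for Ppp1r1b alone among the 7 (log2 difference of -0.41, SE 0.195, edgeR adjusted p = 0.963), against 1.89% of all genes with a difference below 0. It was not under 0.05 for any of the 7 without dnFGFR OS replicate 3, without replicate 5 or with the GC and length trends removed, where the Ppp1r1b estimates were -0.30, -0.31 and -0.23. The difference was below 0 for 6 of the 7 and for 49.9% of all genes. It was below 0 for 3 of the 7 without replicate 3, for 7 without replicate 5 and for 4 with the trends removed. The members other than Ppp1r1b had estimates between -0.11 and 0.05.

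Between genotypes within SS housing, none of the 7 passed, against 0.2% of genes. All 7 were lower in dnFGFR mice in estimate, as were 48.4% of all genes, from -0.02 for Ppp1r1b to -0.23 for Rgs9 (SE 0.0696, edgeR adjusted p = 0.303). The unadjusted p was under 0.05 for 4 of them, against 4.51% of all genes in that direction, and the groups overlapped for all 7, against 0.812% of genes that were lower without overlap. DESeq2 called Rgs9 (adjusted p = 0.0916), and 0.836% of all genes as lower. Without control SS replicate 1, 6 of the 7 were lower in estimate and 2 had an unadjusted p under 0.05, against 896 of 17141 genes. Within OS housing, none of the 7 passed either, against 0.0531% of genes, and 6 had an unadjusted p under 0.05 with a lower level, against 3.93%. All 7 were lower in estimate, as were 50% of all genes. Estimates ran from -0.15 for Pde10a to -0.43 for Ppp1r1b (SE 0.159, edgeR adjusted p = 0.655). DESeq2 called none of the 7 and 88 genes in all. For Adora2a (-0.28) and Rasd2 (-0.24) the groups did not overlap, as for 0.767% of all genes. Without replicate 3 of the dnFGFR OS mice, 3 of the 7 had an unadjusted p under 0.05 with a lower level, against 678 of 17064 genes, and without replicate 5 all 7 did, against 646 of 17082 genes. The Pde10a estimate was -0.08 without replicate 3 and -0.29 without replicate 5. With the GC and length trends removed, 2 of the 7 did, Ppp1r1b (-0.28) and Rgs9 (-0.32), against 442 of 16941 genes, and the estimates of Adora2a, Rasd2 and Adcy5 were -0.13, -0.15 and -0.08. These comparisons share mice with the housing comparisons and are not independent of them.

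When the genotypes were compared over both housings, with housing as a covariate, 2 of the 7 genes were downregulated in dnFGFR mice. Genes called lower made up 0.785% of all genes in this comparison, and genes called in either direction 1.33%. The comparison was added after the data were seen. Rgs9 was 17.1% lower (log2 fold change -0.27, SE 0.0591, edgeR adjusted p = 0.0245) and Adcy5 13.5% lower (-0.21, SE 0.0523, edgeR adjusted p = 0.0553). Adora2a (-0.25, edgeR adjusted p = 0.114), Rasd2 (-0.20, edgeR adjusted p = 0.128) and Pde1b (-0.18, edgeR adjusted p = 0.202) did not pass. Ppp1r1b (-0.23) and Pde10a (-0.18) had the largest standard errors, 0.104 and 0.0839, and each had an edgeR adjusted p of 0.418. All 7 were lower in estimate, as were 50.2% of all genes, and all had an unadjusted p under 0.05, as did 5.84% of all genes in that direction. Without dnFGFR OS replicate 3, 5 of the 7 did, against 1009 of 17560 genes. Without dnFGFR OS replicate 5, 6 did, against 1127 of 17558 genes. DESeq2 called 4, Rgs9, Adcy5, Adora2a and Rasd2, and 1.36% of all genes as lower.

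Rgs9 passed without dnFGFR OS replicate 3 (-0.23, edgeR adjusted p = 0.0320), without dnFGFR OS replicate 5 (-0.30, edgeR adjusted p = 0.00574) and with the GC and length trends removed (-0.27, edgeR adjusted p = 0.0148). Adcy5 passed without either mouse, at edgeR adjusted p of 0.0914 and 0.0267. With the trends removed it did not pass (-0.15, edgeR adjusted p = 0.328). It also did not pass without control SS replicate 4, control OS replicate 2, dnFGFR SS replicate 1 or dnFGFR SS replicate 3, where its edgeR adjusted p reached up to 0.120. Without dnFGFR OS replicate 5, 3 of the 7 were called, with Adora2a added (edgeR adjusted p = 0.0684), against 1.1% of all genes called lower. Without dnFGFR SS replicate 2 or dnFGFR SS replicate 5, 4 were called, with Adora2a and Rasd2 added. In these fits 17575 and 17565 genes were tested. Over all fits with 1 mouse left out, between 176 and 336 of all genes were called in either direction. With the replicate number as a block, Adora2a passed as well (-0.25, edgeR adjusted p = 0.0806). Sacrifice date cannot be told apart from genotype in any of these fits.

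Over both genotypes, with genotype as a covariate, none of the 7 genes passed between OS and SS housing, against 0.0344% of genes. This comparison was also added after the data were seen. All 7 had lower estimates after OS housing, against 49.8% of all genes, from -0.08 for Rasd2 to -0.22 for Rgs9 (SE 0.0590, edgeR adjusted p = 0.166), and 5 had an unadjusted p under 0.05, against 5.63% of all genes in that direction. DESeq2 called Rgs9 (adjusted p = 0.0436) and Adcy5 (adjusted p = 0.0623), and 0.906% of all genes as lower. With the GC and length trends removed, 3 of the 7 had an unadjusted p under 0.05, against 590 of 17445 genes that were lower, and the estimates of Rasd2, Adcy5 and Adora2a were -0.03, -0.07 and -0.10. Without dnFGFR OS replicate 3, 4 of the 7 had an unadjusted p under 0.05, against 806 of 17560 genes, and without replicate 5, 5 did, against 1066 of 17558 genes. The estimates of Rgs9 and Pde10a were -0.18 and -0.16 without replicate 3, and -0.25 and -0.26 without replicate 5. Restricting the mice to dates with both housings of a genotype left 7 control mice (2 SS, 5 OS) and 6 dnFGFR mice (2 SS, 4 OS). With the date as a block, the control estimates were -0.17 for Rgs9, -0.12 for Adcy5 and 0.07 for Ppp1r1b, and the dnFGFR estimates -0.22, -0.16 and -0.45. The control estimates of Adora2a, Pde1b and Rasd2 were -0.10, -0.06 and -0.00495, and that of Pde10a was -0.16. In these fits 1 of the 7 in control mice and 0 in dnFGFR mice had an unadjusted p under 0.05 with a lower level, against 212 of 17454 and 225 of 17352 genes.

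**Figure D2:**
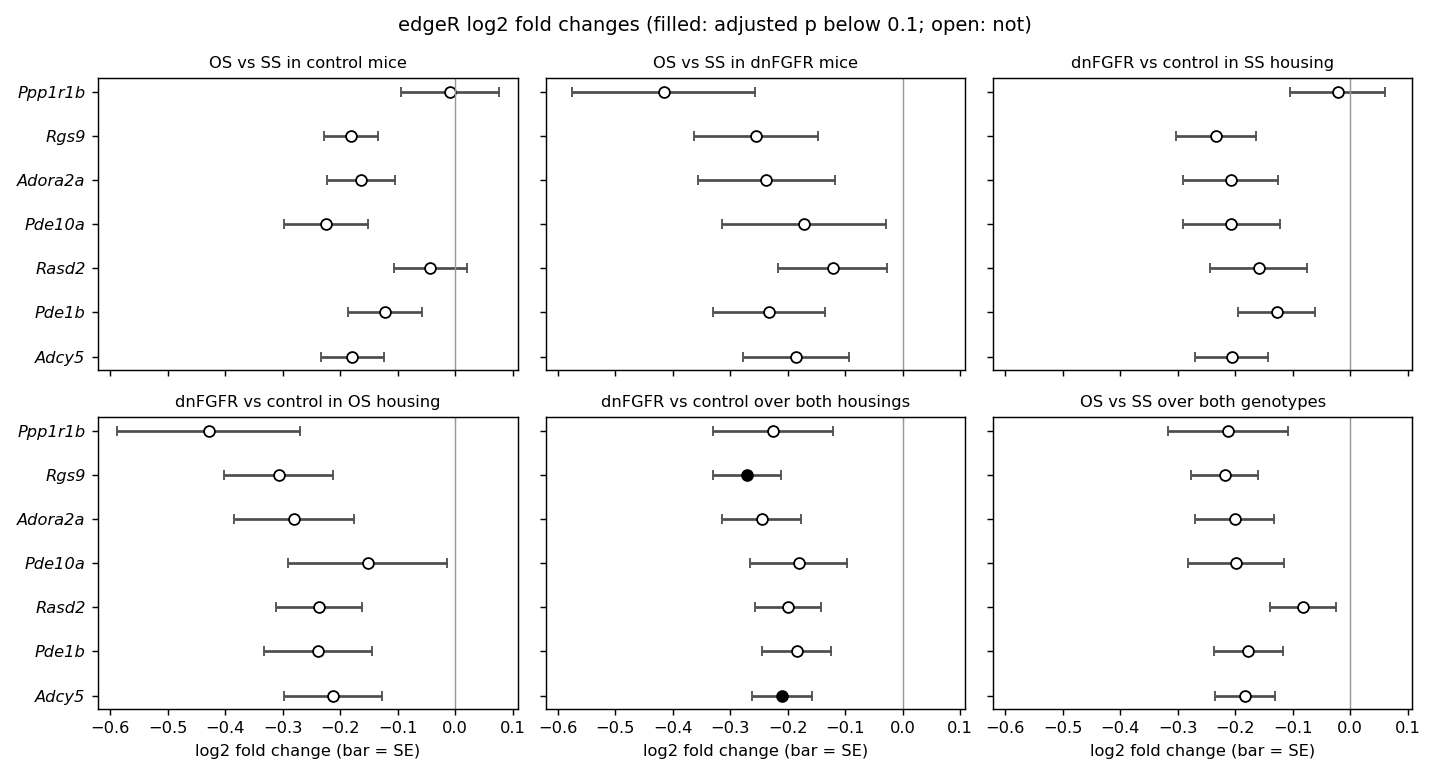
Log2 fold change of each gene (horizontal axis, bar = SE) in 6 edgeR comparisons, with filled points where the adjusted p was under 0.1. All estimates lie below 0, and the only filled points are Rgs9 and Adcy5 between genotypes over both housings.

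Other genes typical of medium spiny neurons were taken as a list of 35, all of them tested, chosen like the 7 with earlier results of these data known. Of these, 32 were lower in OS-housed control mice, 31 in OS-housed dnFGFR mice, 32 in dnFGFR mice of SS housing and 30 in dnFGFR mice of OS housing, and none passed in edgeR. DESeq2 called 2, 0, 1 and 2 of the 35 lower in the same order, against 0.365%, 0.059%, 0.836% and 0.248% of all genes. Over all genes, the shares with a lower estimate were 49.1%, 49.1%, 48.4% and 50%. Without dnFGFR OS replicate 3, 23 of the 35 were lower in OS-housed dnFGFR mice and 26 in dnFGFR mice of OS housing. Without replicate 5 these counts were 35 and 32. Over both housings 32 were lower in dnFGFR mice, with a median log2 fold change of -0.14 against 0.00 for all genes, and 4 passed in edgeR and 6 in DESeq2. Over all genes 50.2% were lower, and 0.785% were called lower in edgeR and 1.36% in DESeq2. Scn4b, a sodium channel subunit, was lower by the most (-0.50, SE 0.0847, edgeR adjusted p = 0.00296). Its group means were 831 CPM in control SS, 755 in control OS, 616 in dnFGFR SS and 510.4 in dnFGFR OS mice. Gng7, a G protein subunit that acts with Adcy5 in the striatum, fell by 0.24 on the log2 scale (edgeR adjusted p = 0.0313), and Syndig1l by 0.31 (edgeR adjusted p = 0.0581). Without dnFGFR OS replicate 3, 3 of the 35 passed, against 0.626% of all genes called lower, and without replicate 5, 5 did, against 1.1%.

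Drd2, the receptor of the indirect pathway, was also downregulated over both housings (-0.27, SE 0.0608, edgeR adjusted p = 0.0314), from 174 CPM in control SS and 169 in control OS to 153 in dnFGFR SS and 133 in dnFGFR OS mice. Drd1, the receptor of the direct pathway, had an estimate of -0.15 and did not pass (SE 0.0655, edgeR adjusted p = 0.358). Whether Drd1 and Drd2 differed from each other was not tested. Arpp21, a phosphoprotein regulated by cyclic AMP, was the most abundant of the list at 839 ± 81.5 CPM (n = 20).

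Partners of DARPP-32 and of cyclic AMP signaling that are not restricted to the striatum, such as subunits of protein kinase A, phosphatases and other cyclases, were a list of 38 genes, of which 37 were tested. None passed in any comparison, and 28 of 37 were higher in dnFGFR mice over both housings in estimate, with a median of 0.03. The unadjusted p was under 0.05 for 4 higher and 1 lower gene of this list, and for 938 higher and 1019 lower of 17445 genes. Of all genes 8687 were higher. Cdk5, a kinase of DARPP-32, had an estimate of -0.20 (edgeR adjusted p = 0.307). Rgs9bp, the anchor of Rgs9 in the retina, was at 0.167 CPM.

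Markers of neighboring regions also differed with genotype in estimate. A list of 15 genes marked the septum, globus pallidus and basal forebrain cholinergic neurons. Of these, 14 were lower in dnFGFR mice over both housings, against 50.2% of all genes, with a median of -0.24. The unadjusted p was under 0.05 for 9 of them, against 5.84% of all genes in that direction. Against 0.785% of all genes called lower, 1 of the 15 passed, Ngfr, the neurotrophin receptor of these neurons (-0.44, edgeR adjusted p = 0.00165). Their summed level was 386 ± 25.6 CPM in control SS, 369 ± 22.5 in control OS, 339 ± 20.9 in dnFGFR SS and 329 ± 39.6 in dnFGFR OS mice, and Zic1 was the most abundant at 83.3 CPM. Of 16 genes of cortical excitatory neurons, 15 were higher in dnFGFR mice, against 8687 of 17445 genes, with a median of 0.29. The unadjusted p was under 0.05 for 8 of them, against 938 higher of all genes, and none of the 16 passed. Their summed level was 3550 ± 522 CPM in control SS, 3533 ± 423 in control OS, 3962 ± 242 in dnFGFR SS and 3711 ± 607 in dnFGFR OS mice. Camk2a was the most abundant at 1852 CPM, and none was at 0 in all mice. Slc17a7, the glutamate transporter of cortical neurons, had means of 268, 290, 404 and 415 CPM in the same order of groups (0.55, edgeR adjusted p = 0.268).

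Of 25 genes of preoptic and hypothalamic identity, 24 were tested over both housings. Of these, 13 were lower in dnFGFR mice, against 50.2% of all genes, with a median of -0.02. Against 0.785% of all genes called lower, 1 of the 24 passed, Gnrh1 (-0.58, edgeR adjusted p = 0.0657). The summed level of the 25 was 623 ± 54.7, 629.7 ± 49.9, 633 ± 47.8 and 609 ± 63.9 CPM. Peg10 (186 CPM) and Sst (139 CPM) weighed most in this sum, whereas Esr1 (5.67 CPM) and Gnrh1 (1.68 CPM) added little. The sum therefore does not measure how much preoptic tissue each sample held. Genes of the choroid plexus and ependyma were higher in OS-housed control mice in 12 of 12 cases, against 8650 of 17004 genes. The median of the 12 was 1.23, 5 had an unadjusted p under 0.05, against 622 higher of all genes, and none passed. Ttr, a thyroid hormone carrier, was the most abundant of them over all mice at 576 CPM. Their summed level was 779 ± 658 CPM in control SS, 1971 ± 1113 in control OS, 878 ± 915 in dnFGFR SS and 1111 ± 1291 in dnFGFR OS mice. Between genotypes over both housings 12 of 12 were lower in estimate, against 50.2% of all genes, with a median of -0.37, and none passed. In the endothelium list of 7 genes, against 0.785% of all genes called lower, Cldn5 passed between genotypes (-0.40, edgeR adjusted p = 0.0948). In control mice 6 of these 7 were lower after OS housing in estimate, 3 with an unadjusted p under 0.05, against 49.1% and 3.54% of all genes, 1 gene was higher with an unadjusted p under 0.05, and none passed. Their summed level was 274 ± 4.47 CPM in control SS, 255 ± 6.21 in control OS, 252 ± 24.6 in dnFGFR SS and 249 ± 27.96 in dnFGFR OS mice, with no overlap between the control groups. No gene passed among 7 of striatal interneurons, 9 of the thalamus, 10 of oligodendrocytes, 8 of astrocytes, 8 of microglia and 11 pan-neuronal genes, whose medians in this comparison ran from -0.14 for oligodendrocytes to 0.06 for pan-neuronal genes. Of the oligodendrocyte genes 9 of 10 were lower in dnFGFR mice in estimate, 6 of them with an unadjusted p under 0.05, against 50.2% and 5.84% of all genes. The part that the makeup of the dissected tissue had in the levels of the 7 genes was not tested.

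Most pairs of the 7 genes varied together from mouse to mouse. The heat map of deviations from the 20-mouse mean shows control SS replicate 1 above the mean for every gene and dnFGFR OS replicate 3 below it for every gene. Control SS replicate 1 was the highest mouse for 6 of the 7, and control SS replicate 4 was the highest for Rgs9. Between the highest and the lowest mouse, levels differed by 1.54-fold for Rasd2 and by 2.16-fold for Ppp1r1b. Within groups, the biological coefficient of variation was 9.20% for Adcy5 and 15.6% for Ppp1r1b, around a median of 12.4% over 17445 genes.

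**Figure D3:**
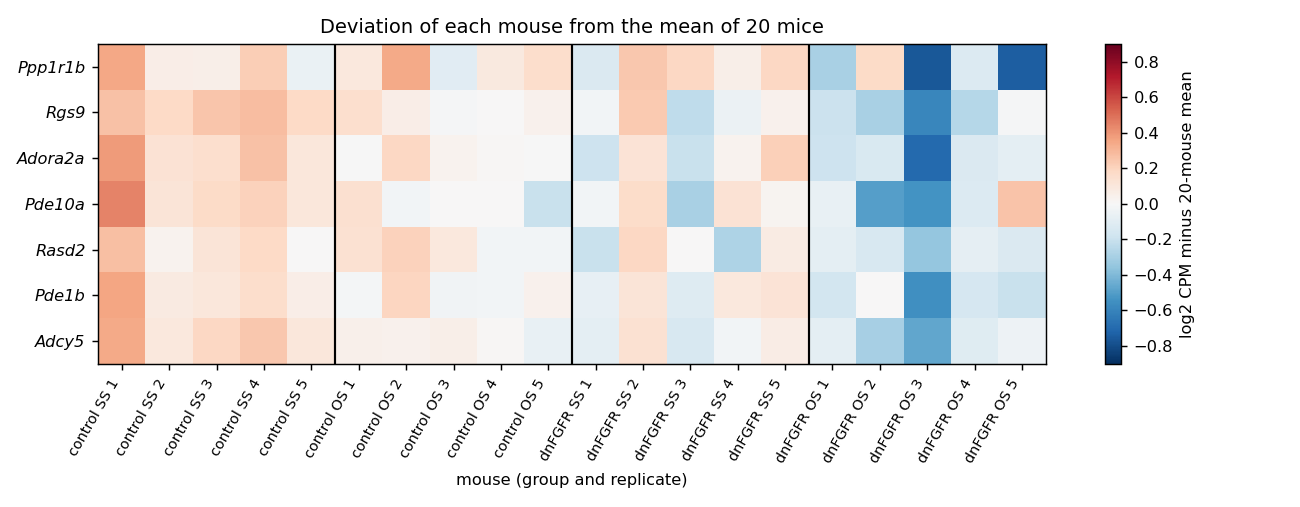
Deviation of log2 CPM from the mean of 20 mice (color) for each gene (vertical) in each mouse (horizontal, black lines between groups). dnFGFR OS replicate 3 is blue for all 7 genes, while dnFGFR OS replicate 5 is blue for Ppp1r1b and red for Pde10a.

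Pearson's r was computed on log2 CPM over the 20 mice for the 21 pairs of genes, among 41 relations in all, with p-values from 100000 permutations of the mice. It ranged from 0.253 to 0.952, with a median of 0.801, and 20 pairs passed an adjusted p of 0.05. Over deviations from the group means, permuted within groups, r ranged from -0.129 to 0.909 with a median of 0.622, and 12 pairs passed. The r of pairs of other genes was not computed. Whether these values and counts are higher than for other genes of these libraries was therefore not tested. The closest pair was Adora2a and Pde1b, with r = 0.952 (permutation p = 1e-05, the smallest possible, adjusted p = 5.12e-05) and rho = 0.916 (permutation p = 1e-05, adjusted p = 0.000137). Their r was 0.909 within groups and 0.872 without dnFGFR OS replicate 3 and control SS replicate 1, the mice farthest from the median. Rgs9 and Adcy5 had r = 0.943 (permutation p = 1e-05, adjusted p = 5.12e-05) and rho = 0.941 (permutation p = 1e-05, adjusted p = 0.000137). Their r was 0.846 within groups and 0.887 without dnFGFR OS replicates 3 and 2.

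The relations of Ppp1r1b differed from gene to gene. With Adora2a r was 0.727 (permutation p = 0.0004, adjusted p = 0.00102, rho = 0.603), 0.57 within groups (adjusted p = 0.0825) and 0.617 without dnFGFR OS replicates 3 and 5. With Rasd2 r was 0.679 (permutation p = 0.00087, adjusted p = 0.00198, rho = 0.723), 0.534 within groups (adjusted p = 0.0234) and 0.586 without the same mice. Both passed over all mice, and Rasd2 also within groups. With Pde1b it had r = 0.849 (permutation p = 1e-05, adjusted p = 5.12e-05), rho = 0.788 (permutation p = 0.00011, adjusted p = 0.000501) and 0.766 within groups, and r = 0.747 without dnFGFR OS replicates 3 and 5. With Pde10a it had r = 0.253 (permutation p = 0.283, adjusted p = 0.387), rho = 0.224 (permutation p = 0.343, adjusted p = 0.453) and -0.129 within groups. This r was 0.178 without dnFGFR OS replicates 3 and 5, 0.5 without replicate 5 alone and -0.0835 without replicate 3 alone. With Rgs9, r was 0.558 over all mice and 0.158 within groups, and with Adcy5 it was 0.567 and 0.249. These 2 relations passed over all mice (permutation p = 0.0133 and 0.0115, adjusted p = 0.0247 and 0.0225, rho = 0.528 and 0.457), but not within groups. They did not hold without dnFGFR OS replicates 3 and 5, where r was 0.397 (permutation p = 0.102) and 0.36 (permutation p = 0.141). Without replicate 3 alone r was 0.303 for Rgs9 and 0.326 for Adcy5, the lowest values with 1 mouse left out, and neither passed. Of the 20 mice, 2 ended the call of each relation when left out, dnFGFR OS replicate 3 and control SS replicate 1.

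**Figure D4:**
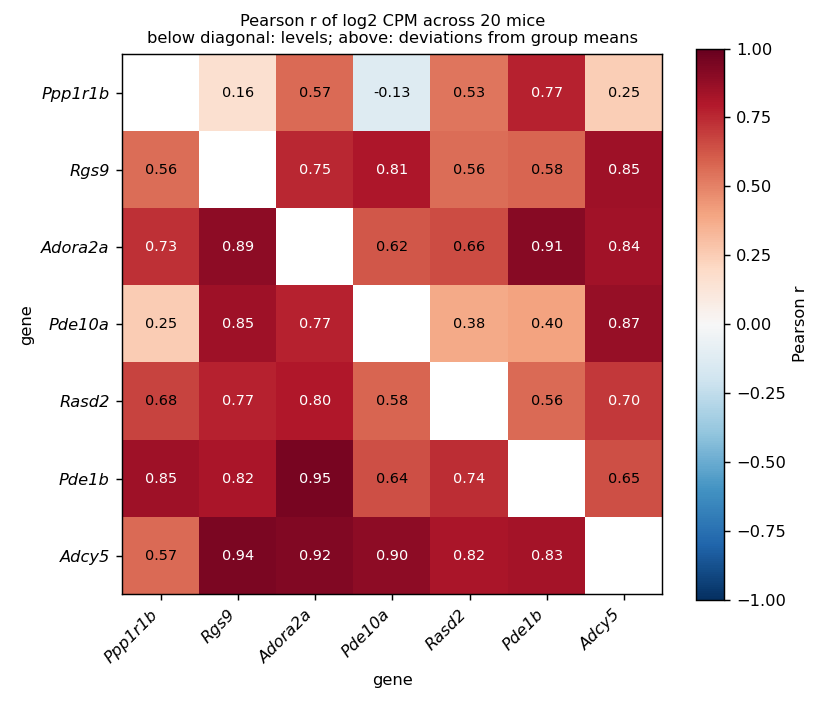
Pearson's r of log2 CPM for each pair of the 7 genes over 20 mice (color and number), with levels below the diagonal and deviations from group means above it. Ppp1r1b and Pde10a have the lowest values, 0.25 and -0.13, and Adora2a and Pde1b the highest, 0.95 and 0.91.

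The GC trend of each library was fitted to the levels of the tested genes, the 7 included. A gene rich in GC can therefore follow it by construction. The share of all genes with an r as high as those below was not computed. This trend moved with Ppp1r1b. Across mice, r was 0.836 (permutation p = 2e-05, adjusted p = 9.11e-05) and rho 0.786 (permutation p = 0.0001, adjusted p = 0.000501), with 0.774 within groups and 0.746 without dnFGFR OS replicates 5 and 1. For Pde10a r was -0.144 (permutation p = 0.524, adjusted p = 0.583), rho -0.0406 (permutation p = 0.868, adjusted p = 0.889), -0.642 within groups (permutation p = 0.0400, adjusted p = 0.0964) and 0.0777 without the same mice. For the other 5 genes r ran from 0.204 to 0.536, with adjusted p from 0.0548. The highest was that of Pde1b, whose rho of 0.632 passed (permutation p = 0.00338, adjusted p = 0.00815). Ppp1r1b transcripts have a GC content of 61.0%, the highest of the 7, and those of Pde10a and Rgs9 have 48.3% and 48.2%, the lowest. The order of GC content was not that of r, since Adcy5 (59.5% GC) had r = 0.214 and Adora2a (59.2% GC) r = 0.36, beside r = 0.204 for Rgs9. With the trends of each library on GC content and gene length removed, r between Ppp1r1b and Pde10a was 0.792, and r between Ppp1r1b and Rgs9 was 0.786. Between Ppp1r1b and Pde1b r was 0.907 after this removal. The r of Ppp1r1b was lower than before removal with Adora2a (0.614), Rasd2 (0.564) and Adcy5 (0.528).

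**Figure D5:**
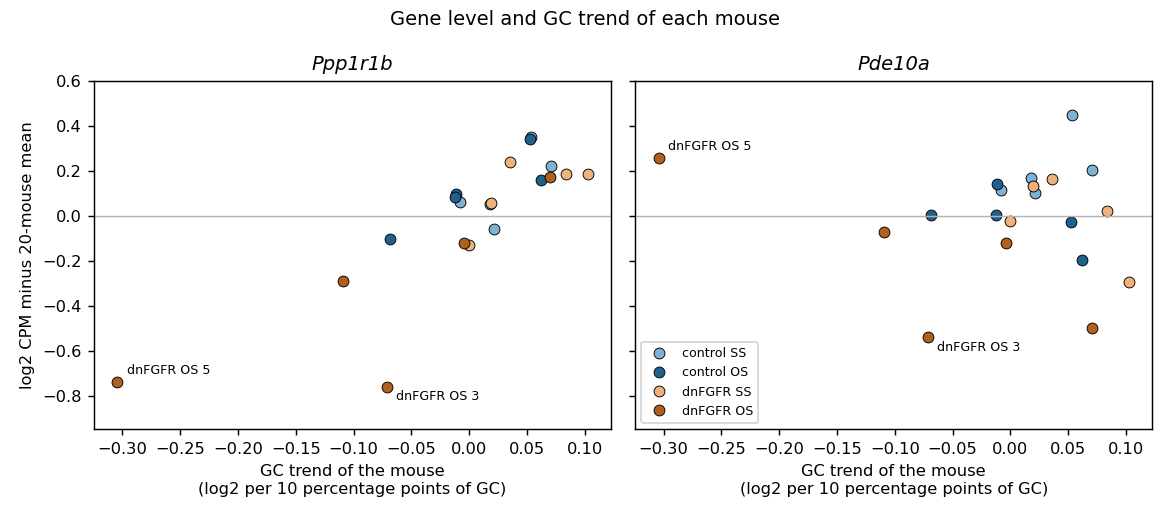
Deviation of log2 CPM from the 20-mouse mean (vertical axis) against the GC trend of the library in log2 per 10 percentage points of GC (horizontal axis) for Ppp1r1b and Pde10a, with each point a mouse colored by group. Ppp1r1b is higher in libraries with a higher GC trend (r = 0.836), Pde10a is not (r = -0.144), and dnFGFR OS replicate 5 lies far to the left at -0.30.

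With the mean of the other 35 striatal genes, Ppp1r1b had r = 0.725 (permutation p = 0.00069, adjusted p = 0.00166) and rho = 0.614 (permutation p = 0.00499, adjusted p = 0.0114), but within groups r was 0.550 (permutation p = 0.0719, adjusted p = 0.147). It was 0.562 without dnFGFR OS replicates 3 and 5, and 0.873 with the GC and length trends removed. Of the other 12 marker lists only astrocytes passed, with r = -0.493 (permutation p = 0.0273, adjusted p = 0.0487, rho = -0.311). Its r was -0.144 without dnFGFR OS replicates 3 and 5, and with 1 mouse left out it lay between -0.565 and -0.328 and no longer passed in 12 of 20 cases. It was -0.432 within groups (adjusted p = 0.270) and -0.509 with the trends removed.

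Among 17438 genes outside the 7, those most like Ppp1r1b by r of deviations from group means over 20 mice were 1700003D09Rik, the overlapping lncRNA (0.990), Hpca, a neuronal calcium sensor (0.954), Tlnrd1, Hras, Car11, Dnal4, Tmem158, Cyp46a1, Nop10 and Pcp4 (0.929). Of these 10, Tmem158 alone is in the list of 35 striatal genes. The median GC content of the 10 was 56.3% and their median length 2158 bases, against 49.9% and 4111 bases for all genes tested. The 5 with the lowest r were Plekhh2 (-0.922), Nfia, Adra1a, Atcayos and Armcx4 (-0.888), with a median length of 8013 bases. For Rgs9, a ranking added after the data were seen gave Plekha5 (0.873), Bcr, Mink1, Ccnyl1, Fras1, Rcor1, Adamts18, Ryr3, Ypel2 and Kcnj2 (0.803). Their median GC content was 49.2%, near that of all genes, and their median length 7238 bases, and none is in the list of 35.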

How the data were processed

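POA RNA of 20 mice was sequenced. Whole-number counts per RefSeq gene, not normalized, were deposited, which the authors made with HISAT2 (GRCm38) and Rsubread. Options for strand, multiple mapping and overlapping genes are not given in the sources used here. A further 20 columns of the table belong to no sample and were not used. The authors' notes name DESeq2 1.36.0. Here counts were tested with edgeR 4.0.16 (quasi-likelihood, TMM, filterByExpr) in R 4.3.3, at a Benjamini-Hochberg adjusted p under 0.1 over all genes, each comparison on the mice of its groups. log2 CPM used a prior count of 2. The steps were tested on simulated data. Replicates are separate mice. Precision is limited by 5 mice per group and, for low genes, by the counted reads, of which 1 mouse had between 32353578 and 39871353.

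The 7 genes and all marker lists were chosen with earlier results of these data known. Named genes were the 7, the most abundant gene of each list (for the cyclic AMP partners it is not reported here), genes that passed (up to 4 per list and comparison), defining markers, and the 10 highest and 5 lowest correlates of Ppp1r1b. Sacrifice dates came from the study's supplement. GC content and merged exon length were computed from GENCODE transcripts and covered 97.6% of the genes tested. Alternatives were DESeq2 1.42.0, RLE size factors, filters set to none or to 10 counts per mouse, 1 fit over the 4 groups, blocks for replicate number or sacrifice date, a prior count of 0.5, Spearman's rho, deviations from group means and each mouse left out. Comparisons over both housings or genotypes, removal of GC and length trends, 15 further gene pairs, relations with the GC trend, and the 0.05 threshold for correlations were chosen after seeing the data.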

Additional observations from a re-analysis of the deposited data

Results flagged for a closer look

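Of 28 sets of 5 mice (7 genes in 4 groups), 5 held a mouse far from the rest of its group by Dixon's ratio, which chance gives in about 1 of 20 groups. Adora2a was at 110 CPM in dnFGFR OS replicate 3, below the nearest mouse of its group at 157 CPM. Rasd2 was at 369 CPM in the same mouse, where the nearest was at 424 CPM. Adora2a and Pde1b were highest in control OS replicate 2, at 204 and 932 CPM, with the nearest mice at 183 and 836 CPM. Pde10a was at 985 CPM in control SS replicate 1, with the nearest at 833 CPM.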

How the results depend on the processing

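Of 385 log2 fold changes of the 7 genes under alternatives, 362 kept their direction and their side of the threshold, 13 reversed, 8 newly passed and 2 no longer passed. Of 700 with 1 mouse left out, 670 kept both, 21 reversed, 5 newly passed and 4 no longer passed. The cause of these changes was not tested.

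DESeq2 called more genes than edgeR: 161 for housing in control mice (2 of the 7), 14 for housing in dnFGFR mice, 235 (1 of the 7) and 88 for genotype in SS and OS housing, 429 (4 of the 7) for genotype over both housings and 301 (2 of the 7) for housing over both genotypes. edgeR called 21, 0, 34, 9, 232 and 6. In control mice, at least 10 counts in every mouse gave 32, all 4 groups in 1 fit 0, dates as a block 1 and trend removal 34. For genotype in OS housing, all 4 groups in 1 fit gave 45 and trend removal 20. For housing over both genotypes, trend removal gave 0. For genotype over both housings, trend removal left 1 of the 7. With 1 mouse left out, genes called ranged from 0 to 32 (housing, control), 0 to 0 (housing, dnFGFR, and interaction), 21 to 70 and 3 to 16 (genotype, SS and OS), 176 to 336 (genotype, both) and 0 to 65 (housing, both), and members called from 1 to 4 for genotype over both housings and 0 to 0 elsewhere.

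Same-numbered mice of different groups correlated at -0.23 to 0.26, over 0.1 for 4 of 20 pairs. Mice of different numbers were not compared in this way, so these values cannot show whether the numbers pair the mice. The main fits treated the mice as unpaired. The replicate block gave 3 genes for genotype in OS housing. With trend removal the block gave 59 genes in control mice, 57 for genotype in SS housing, 0 for housing over both genotypes, and 1 of the 7 for genotype over both housings.

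Ppp1r1b reversed in control mice with trend removal (0.00432), with trend removal and the block (0.00807), within dates (0.0688) and with 1 mouse left out (-0.0700 to 0.0501), and in SS housing between genotypes with 1 mouse left out (-0.0656 to 0.0385). Interaction estimates near 0 reversed: Adcy5 with DESeq2 (0.000242), RLE (0.000255), trend removal (0.137), trend removal and the block (0.128) and 1 mouse left out (-0.0406 to 0.0633); Adora2a (0.102, 0.0882 and -0.11 to 0.0332), Pde10a (-0.0172, -0.0242 and -0.0693 to 0.14) and Rasd2 (0.0301 and 0.0308) with the same removals; and Rgs9 with 1 mouse left out (-0.14 to 0.00799).

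For correlations with Ppp1r1b, deviations gave 0.158 (Rgs9), 0.570 (Adora2a), -0.129 (Pde10a) and 0.249 (Adcy5), none of which passed. rho with Adcy5 (0.457) did not pass, and trend removal gave 0.792 with Pde10a, which passed. With 1 mouse left out, r ranged from 0.303 to 0.675 for Rgs9, 0.541 to 0.826 for Adora2a, -0.0835 to 0.5 for Pde10a, 0.554 to 0.758 for Rasd2, 0.756 to 0.890 for Pde1b and 0.326 to 0.678 for Adcy5. Lists whose sign reversed were cyclic AMP partners (0.0351), preoptic (-0.165), striatal interneurons (-0.0112) and microglia (-0.365) with trend removal, preoptic (-0.0745), cortex (0.0933), septum (-0.046) and endothelium (-0.197) within groups, and thalamus (0.0226) and choroid plexus (0.11) by rho. With 1 mouse left out, those of choroid plexus (-0.214 to 0.0876), microglia (-0.0153 to 0.361), pan-neuronal (-0.155 to 0.00668), preoptic (-0.128 to 0.259) and thalamus (-0.407 to 0.139) genes reversed once each. At 5 mice per group, only differences well above the spread between mice could pass.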
